A study of Mus musculus with 12 samples.

Results

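The ubiquitin conjugating enzymes (E2 enzymes, symbols starting with Ube2) and the ubiquitin-specific proteases (symbols starting with Usp and a digit) were followed in mouse liver. Members were taken from the platform annotation by symbol alone, whatever their values, without Usp18, and the brightest of a gene's probes over the 12 arrays stood for the gene. The rule found 76 of 17742 measured genes, 29 Ube2 and 47 Usp genes, which held 92 of 26423 probes. Usp6nl, not a protease, and Ube2cbp, not an E2 enzyme, were caught by spelling only and kept as the rule keeps them.

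Total RNA was taken from liver of mice labelled 8 weeks old in 3 groups of 2 samples, each sample read on 2 arrays: untreated controls, mice given STZ (streptozotocin, which kills pancreatic beta cells and so brings on diabetes), and STZ mice that also received MENS. The labels leave the abbreviation MENS unexplained; a printed circuit board driven by the MENS device was used for 1 h per day, 5 days per week, over 6 weeks, and no group analysed here had an inactive device. The labels do not say whether 8 weeks was the age at the start or at sampling, give no strain, and do not tie samples to animals. The p-values therefore speak only of the spread among these 6 samples, which may be technical. Values below are log2(intensity + 50), the mean of a sample's arrays. Differences are on that scale with the standard error of the limma model, and the 2 samples per group limit the precision.

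Ubiquitin is a small protein that is attached to other proteins to mark them for the proteasome or to alter their activity, partner or place. An E1 enzyme activates it, an E2 enzyme carries it and sets much of the type of chain, an E3 ligase chooses the substrate, and deubiquitinases such as the ubiquitin-specific proteases take it off again. In liver the system is known for turning over metabolic enzymes, for clearing misfolded proteins from the endoplasmic reticulum and for tuning inflammatory and growth factor signals.

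The windows around the gene starts are shown for Ube2a, Usp25 and Ube2q1, which were low in the STZ+MENS samples against both other groups and have 1 window each in the RefSeq promoter table (GRCm38.p6). Each runs from 250 bases before to 50 after the start, on the + strand, and capitals mark the GC box GGGCGG or, read from the other strand, CCGCCC. The windows are Ube2a at chrX:36874045-36874344, Usp25 at chr16:77013819-77014118 and Ube2q1 at chr3:89773359-89773658.
Ube2a: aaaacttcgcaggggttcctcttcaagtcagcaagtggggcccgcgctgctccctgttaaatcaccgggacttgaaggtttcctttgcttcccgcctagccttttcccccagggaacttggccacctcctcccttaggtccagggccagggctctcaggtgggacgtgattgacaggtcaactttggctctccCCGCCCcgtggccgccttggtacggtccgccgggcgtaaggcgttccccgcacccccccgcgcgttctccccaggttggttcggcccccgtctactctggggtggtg
Usp25: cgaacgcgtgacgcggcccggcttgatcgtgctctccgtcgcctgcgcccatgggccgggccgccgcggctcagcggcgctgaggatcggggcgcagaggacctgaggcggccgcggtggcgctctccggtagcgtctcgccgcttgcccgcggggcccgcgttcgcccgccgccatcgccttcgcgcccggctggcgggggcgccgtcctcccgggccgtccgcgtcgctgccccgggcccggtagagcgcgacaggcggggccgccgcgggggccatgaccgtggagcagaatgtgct
Ube2q1: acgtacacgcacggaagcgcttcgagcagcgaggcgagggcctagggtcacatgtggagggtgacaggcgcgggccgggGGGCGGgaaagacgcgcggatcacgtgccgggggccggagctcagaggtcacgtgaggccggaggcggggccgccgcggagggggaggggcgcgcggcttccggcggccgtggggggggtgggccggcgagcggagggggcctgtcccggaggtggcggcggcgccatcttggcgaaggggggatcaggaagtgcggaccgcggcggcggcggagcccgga
Of the 76 genes, 60 had a window in that table (69 windows). A GC box on either strand was in the windows of 46 of the 60 genes (76.7%), against 38.2% of the 27025 genes in the table. The TATA box letters TATAAA were in 8.33% of the 60 genes and 15.7% of all, and the inverted CCAAT box ATTGG in 23.3% and 41.1%. The ETS core CGGAAG was in 31.7% and 18.8%, the E-box CACGTG in 13.3% and 8.09%, and the cAMP element TGACGTCA in 5% and 2.03%. These are matches of letters on both strands and can overlap one another. They show no binding. The table also holds genes that are not among the 17742 measured here. No share was taken over the measured genes or over genes of like level. Among the genes lower in STZ+MENS than in STZ at an unadjusted p under 0.05, 12 of 14 with a window held a GC box, and among the other members 34 of 46 did.

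Most members were well expressed. Their mean levels ran from 6.24 for Usp51 to 16.08 for Ube2d2a (UBE2D2 on the platform), with a median of 11.77, against 10.36 for all genes, and 53 of 76 were brighter than the median gene. Usp51 had a mean intensity under 50, and Usp51 and Ube2t one under 100. The probes differ in how brightly they bind, so these levels do not order the genes by transcript number. Samples of a group differed by about as much for members as for other genes: the median SD between samples was 0.163 for members and 0.173 for all genes, and between the arrays of a sample 0.148 and 0.136. Arrays of the same sample correlated at 0.986 to 0.996, arrays of different groups at 0.958 to 0.985. The largest gap between a sample's arrays was 1.40, for Usp16.

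No member passed the Benjamini-Hochberg threshold of 0.05 in limma in any comparison; over all genes 1 (0.00564%), 0 (0%) and 1 (0.00564%) passed in STZ against control, STZ+MENS against STZ and STZ+MENS against control. The lowest adjusted p of a member was 0.0966, 0.0573 and 0.111 in that order. Members are therefore described by differences, by overlap of the samples and by the looser rule of an unadjusted p under 0.05 in the same limma fit, each beside its rate over all genes. Below, a gene is said to be called when it meets that looser rule, which is no evidence on its own for a single gene. The comparisons share samples, so a low STZ value enters STZ against control and STZ+MENS against STZ with opposite signs.

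**Figure D1:**
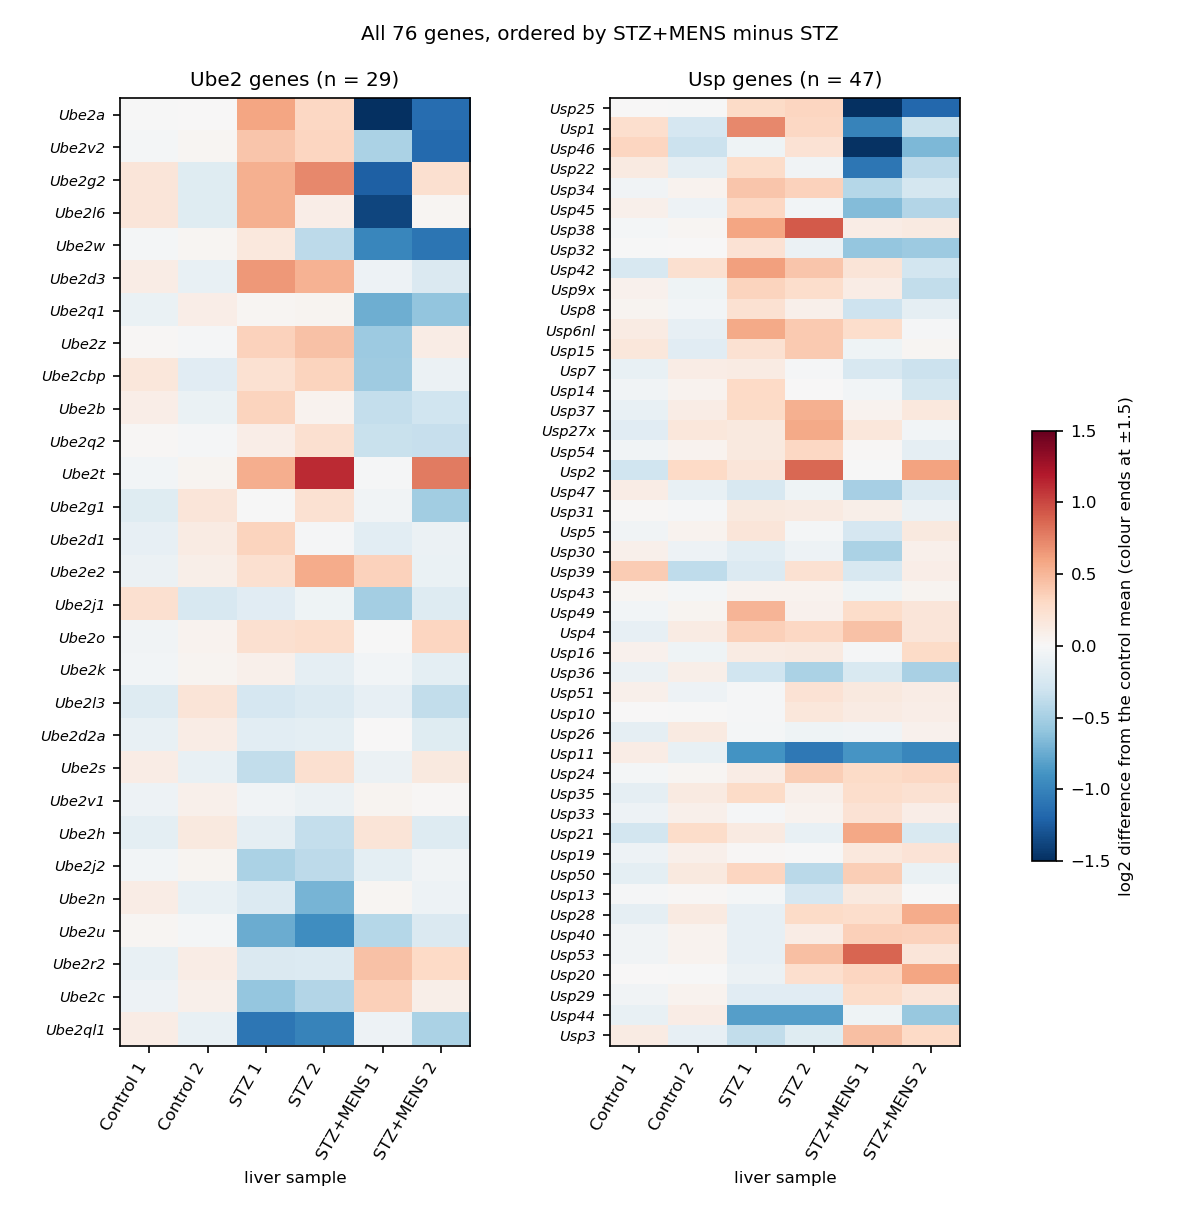
Heat map of the log2 difference of each of the 6 liver samples (columns) from the control mean for the 29 Ube2 genes (left) and the 47 Usp genes (right), ordered from the lowest to the highest difference of STZ+MENS from STZ. Blue is lower and red higher than the control mean, and colours end at a difference of 1.5; the deepest blue lies in the STZ+MENS columns at the top, for Ube2a and Usp25, and Usp11 is blue in both STZ and STZ+MENS.

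In STZ against control, which asks what diabetes of this kind goes with in liver, the clearest differences were in single genes and went both ways. Usp11, Ube2ql1, Ube2u and Usp44 were lower in both STZ samples than in either control, and Usp38 and Ube2d3 were higher. At an unadjusted p under 0.05 there were 12 of 76 members (15.8%; all genes 17%), 6 higher (all genes 8.48%) and 6 lower (all genes 8.49%), a share near the background. The median difference of members was 0.09 against -0.02 for all genes, and 51 of 76 differences were above 0 (all genes 8439 of 17742). The samples did not overlap for 41 members, 27 with STZ higher and 14 with STZ lower (53.9%; all genes 52.1%). Over all 17742 genes 4251 had STZ higher and 4995 had STZ lower without overlap.

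In STZ+MENS against STZ, which asks what the device treatment goes with in diabetic mice, more members were lower than higher. Among the members called, Ube2a and Usp25 had the largest differences, 3.52-fold and 3.37-fold lower, followed by Ube2v2 (whose probes disagree), Usp1, Usp46, Ube2g2, Ube2w and Usp22. Ube2l6, not called, was as low by its mean (-1.00), on STZ+MENS sample 1 alone. At an unadjusted p under 0.05 there were 27 of 76 members (35.5%; all genes 25.4%), 19 lower (25%; all genes 12.8%) and 8 higher (10.5%; all genes 12.6%). The median difference was -0.11 for members and 0.06 for all genes, and 47 of 76 differences were below 0 (all genes 7730 of 17742). The samples did not overlap for 33 members with STZ+MENS lower and 15 with it higher (63.2% together; all genes 57.9%). Over all 17742 genes 4244 had STZ+MENS lower and 6034 had it higher without overlap. Differences of at least 1 were found for 6 members, all lower (7.89%; 3.84% of all genes were that much lower). Without STZ sample 1, 12 members were lower and 6 higher at the unadjusted threshold (all genes lower 7.61%), and without STZ sample 2, 13 and 6 (10.7%). Without STZ+MENS sample 2, 12 members passed the adjusted threshold, as did 1759 of all genes; there the lone STZ+MENS sample is assumed to vary like the other groups.

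Brightness moved with these rates. In a split made after the values were seen, of the 8871 genes at or above the median level 36.8% had an unadjusted p under 0.05 in STZ+MENS against STZ, with 17.8% lower and 19% higher. Of the 53 members among them 12 were lower (22.6%) and 5 higher, and of the 23 dimmer members 7 were lower (30.4%; all dimmer genes 7.71%) and 3 higher (all dimmer genes 6.28%). The part that brightness plays in the members' counts was not tested beyond this split.

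In STZ+MENS against control the calls were again mostly on the low side. Of 14 members at an unadjusted p under 0.05 (18.4%; all genes 18%), 12 were lower (15.8%; all genes 9.18%) and 2 higher (2.63%; all genes 8.82%). Usp25, Ube2a, Usp46 and Ube2w were each lower by over 1 on the log2 scale, and no member was higher by that much. The samples did not overlap for 20 members with STZ+MENS lower and 17 with it higher (48.7% together; all genes 48.6%), and the median difference was -0.06 against 0.02. Over all 17742 genes 4085 had STZ+MENS lower and 4538 had it higher without overlap. Without control sample 1, 8 members met this rule, 1 of them higher and 7 lower (all genes 10.2%).

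**Figure D2:**
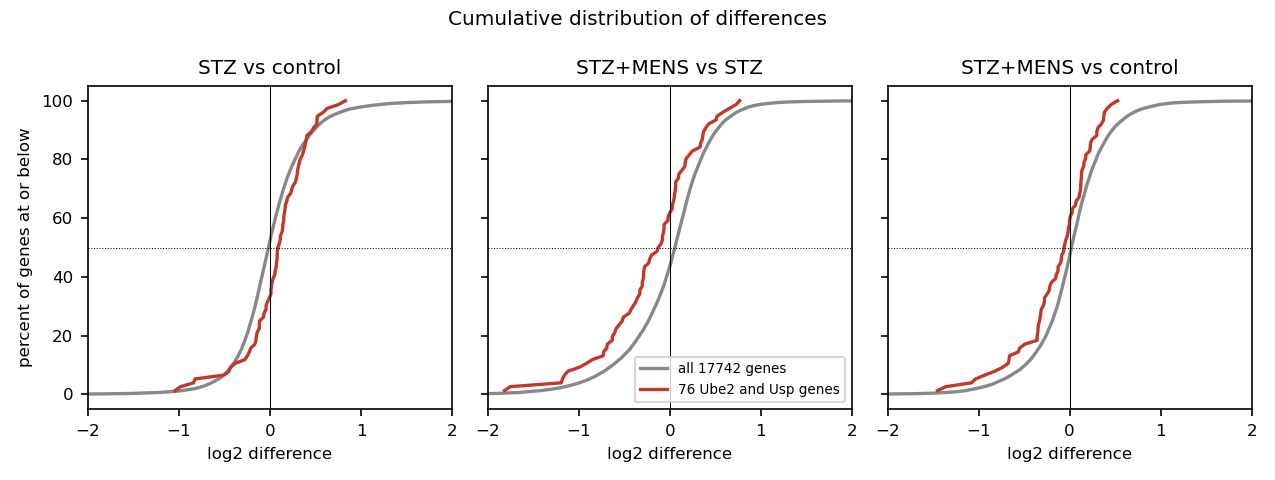
Cumulative share of genes (vertical axis, percent) at or below each log2 difference (horizontal axis) for the 76 members (red) and all 17742 genes (grey), 1 panel per comparison. In STZ against control the red curve lies to the right of the grey over its middle part (medians 0.09 and -0.02), and in STZ+MENS against STZ it lies to the left (medians -0.11 and 0.06).

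Counted by the extreme sample, an STZ sample was the highest of the 6 for 42 members (55.3%; all genes 31%), and an STZ+MENS sample was the lowest for 37 (48.7%; all genes 32%). STZ+MENS sample 1 was the lowest for 21 members and sample 2 for 16 (27.6% and 21.1%; all genes 20.7% and 11.3%). Neither STZ+MENS sample alone held the low values.

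**Figure D3:**
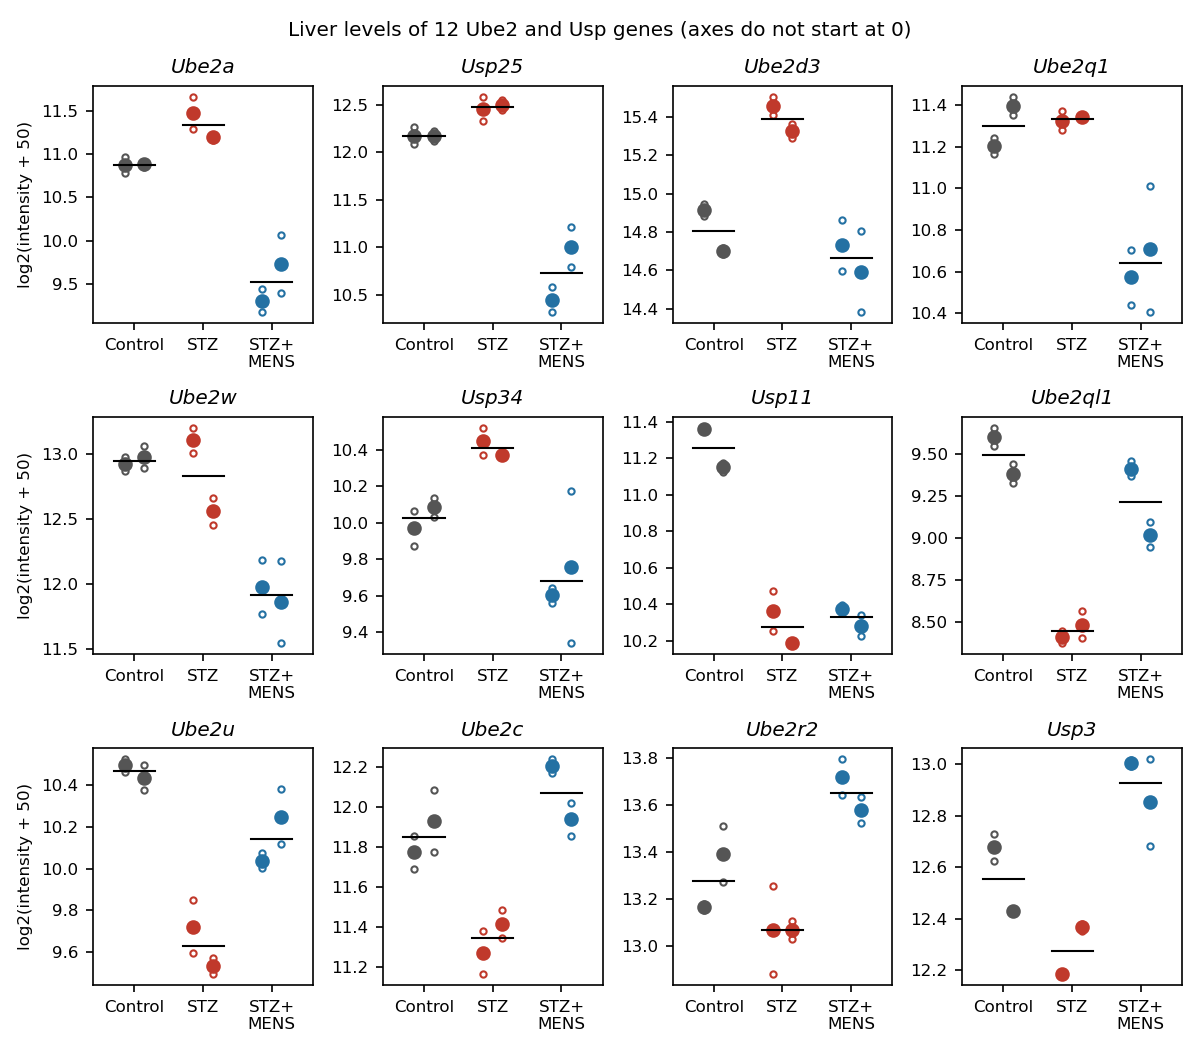
Levels of 12 genes, log2(intensity + 50) on the vertical axis of each panel, by group on the horizontal axis. Large dots are liver samples, small open rings their 2 arrays and bars the mean of the group's 2 samples. Ube2a, Usp25, Ube2d3, Ube2q1, Ube2w and Usp34 have both STZ+MENS samples below both STZ samples, Usp11 is low in STZ and STZ+MENS, and Ube2ql1, Ube2u and Ube2c are lowest in STZ.

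Among the E2 enzymes of mitosis and DNA repair, Ube2a and its close relative Ube2b are the Rad6 enzymes, which place single ubiquitins on histone H2B and on the sliding clamp PCNA. Ube2a was at 10.88 and 10.89 in the control samples, 11.48 and 11.19 in the STZ samples and 9.31 and 9.73 in the STZ+MENS samples. Both STZ+MENS samples lay more than 1 below every other sample, and the difference from STZ was -1.81 ± 0.19 (adjusted p = 0.0573, limma) and from control -1.36 ± 0.19. Ube2b was at 12.11 and 11.90 in control, 12.34 and 12.05 in STZ and 11.64 and 11.70 in STZ+MENS, a difference of -0.52 ± 0.16 in STZ+MENS against STZ, without overlap and smaller than that of Ube2a. A dimmer Ube2b probe gave -1.25 for the same comparison, closer to the value of Ube2a.

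Ube2c and Ube2s are the E2 pair of the anaphase-promoting complex, the ligase of mitotic exit: Ube2c starts the chains and Ube2s extends them. Ube2c was at 11.77 and 11.93 in control, 11.27 and 11.41 in STZ and 12.20 and 11.94 in STZ+MENS. It was lowest in STZ (-0.51 ± 0.16 against control) and higher in STZ+MENS than in STZ (0.73 ± 0.16), and the STZ+MENS samples lay just above the controls. Ube2s showed no such order, at 13.64 and 13.43 in control, 13.16 and 13.77 in STZ and 13.45 and 13.68 in STZ+MENS, and its groups overlapped throughout. Ube2t, the E2 enzyme of the Fanconi anaemia pathway, was dim and at 6.60 and 6.69 in control, 7.18 and 7.76 in STZ and 6.63 and 7.42 in STZ+MENS, higher in STZ than in control by 0.83 ± 0.31, or by 0.54 without STZ sample 2. Beside these, 7 of 8 listed markers of dividing cells were measured, with mean levels of 9.36 and 9.45 in control, 9.65 and 10.07 in STZ and 9.56 and 10.13 in STZ+MENS. Of the 7, Aurka alone was called in STZ against control, 1.27 higher (14.3%, all genes 17%). Plk1 and Bub1 were called in STZ+MENS against STZ, 0.53 and 0.43 higher (28.6%, all genes 25.4%). None was called in STZ+MENS against control (all genes 18%). Not all markers went the same way: Plk1 differed by -0.26 in STZ against control, and Aurka and Top2a by -0.63 and -0.57 in STZ+MENS against STZ, none of these called. Their part in the Ube2c, Ube2s and Ube2t values was not tested.

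Among the E2 enzymes of broad use, 2 of 7 were called in STZ+MENS against STZ (28.6%, all genes 25.4% in either direction), a share near the background. Both were lower (all genes lower 12.8%). Ube2d3, which works with many E3 ligases, was at 14.91 and 14.70 in control, 15.46 and 15.33 in STZ and 14.73 and 14.59 in STZ+MENS. Both STZ samples lay above all others, with a difference of 0.59 ± 0.15 against control and of -0.73 ± 0.15 for STZ+MENS against STZ. A dimmer Ube2d3 probe gave -0.68 in the latter and 0.20 in the former. Its relatives differed less: Ube2d1 by -0.28 ± 0.18 and Ube2d2a by 0.06 ± 0.15 in STZ+MENS against STZ. Ube2w, which puts ubiquitin on the amino end of proteins, was at 12.92 and 12.98 in control, 13.11 and 12.56 in STZ and 11.97 and 11.86 in STZ+MENS, and both STZ+MENS samples lay below all others (-0.92 ± 0.20 against STZ, -1.03 ± 0.20 against control). A dimmer Ube2w probe gave -0.45 against STZ and -0.59 against control, neither called. Ube2l3, which serves ligases that carry ubiquitin themselves, was among the brightest members and differed by -0.02 ± 0.18. Ube2e2 differed by -0.28 ± 0.21, with overlap.

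Lysine 63-linked chains, used in signalling and repair more than in degradation, are made by Ube2n together with an inactive partner, Ube2v1 or Ube2v2. Ube2n was at 11.94 and 11.72 in control, 11.62 and 11.14 in STZ and 11.86 and 11.75 in STZ+MENS, differing by -0.45 ± 0.20 in STZ against control and by 0.43 ± 0.20 in STZ+MENS against STZ, neither at an unadjusted p under 0.05. Ube2v1 was dim and level in all samples, from 7.98 to 8.15. The brightest Ube2v2 probe was at 9.93 and 9.98 in control, 10.37 and 10.27 in STZ and 9.48 and 8.78 in STZ+MENS, a difference of -1.19 ± 0.24 in STZ+MENS against STZ. A probe for the same gene of nearly equal brightness (mean intensities 867 and 902) went the other way, by 0.55 ± 0.21, and the mean of both was -0.32, so no direction can be given for Ube2v2.

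Of the enzymes that build lysine 48-linked chains, the usual proteasome signal, Ube2r2 was the 1 of 4 that was called in STZ+MENS against STZ (25%; all genes 25.4%). Ube2r2, which works with cullin-based SCF ligases, was at 13.16 and 13.39 in control, 13.07 and 13.07 in STZ and 13.72 and 13.58 in STZ+MENS, and both STZ+MENS samples were above the others (0.58 ± 0.15 against STZ, 0.37 ± 0.15 against control). The difference from control was no longer called in 11 of 18 alternatives. Ube2g1, Ube2k and Ube2h differed by -0.40 ± 0.22, -0.06 ± 0.15 and 0.25 ± 0.20 in STZ+MENS against STZ, with overlap for Ube2k and Ube2h. Ube2h, an enzyme known from maturing red cells, was at 14.76 and 15.05 in control, 14.76 and 14.54 in STZ and 15.10 and 14.70 in STZ+MENS. Beside it, 3 of 9 listed erythroid markers were measured, 1 of them with a mean intensity under 50. In STZ against control 2 of the 3 were lower, with Slc4a1 at -2.28, and 1 was higher. Among the 3, 1 was called (33.3%, all genes 17%). Their mean level was 9.05 in STZ+MENS sample 2 and 9.80 to 11.07 in the other samples. The part of these markers in Ube2h was not tested.

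The E2 enzymes of endoplasmic reticulum-associated degradation did not move together. Ube2g2 was at 13.27 and 12.89 in control, 13.61 and 13.81 in STZ and 11.86 and 13.32 in STZ+MENS, with STZ+MENS sample 1 far below the other 5 samples. Its difference of -1.12 ± 0.45 in STZ+MENS against STZ was -0.38 without that sample and -1.85 without STZ+MENS sample 2. A dimmer Ube2g2 probe gave -0.33 in that comparison and was not called. Ube2j2, anchored in the reticulum membrane, was lowest in STZ, at 9.28 and 9.36 in control, 8.84 and 8.93 in STZ and 9.17 and 9.27 in STZ+MENS (-0.44 ± 0.14 against control, and 0.34 ± 0.14 for STZ+MENS against STZ). Its second probe gave -0.36 and 0.27. Ube2j1 differed by -0.12 ± 0.21 and -0.23 ± 0.21 in these comparisons, and its samples spread more than that within the control group, from 13.14 to 13.62.

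Enzymes that carry ubiquitin-like proteins were also uneven across the STZ+MENS samples. Ube2l6, the E2 enzyme for the interferon-induced modifier ISG15, was at 11.67 and 11.31 in control, 12.03 and 11.59 in STZ and 10.11 and 11.52 in STZ+MENS. The low value was that of STZ+MENS sample 1 alone, and the difference from STZ, -1.00 ± 0.45, had an unadjusted p of 0.0672 in limma. Interferon response genes were also lower in STZ+MENS sample 1 than in sample 2. The mean level of the 6 measured of 8 such genes was 11.41 and 11.80 in control, 12.53 and 12.81 in STZ, and 11.98 and 13.04 in STZ+MENS. Of the 6, 3 were called higher (50%, all genes higher 8.48%) and none lower in STZ against control (Mx1 by 1.67, Rsad2 by 1.45). In STZ+MENS against control 3 were called higher (50%, all genes higher 8.82%), and in STZ+MENS against STZ none was called (all genes 25.4%). Isg15, the modifier itself, was at 11.48 and 12.33 in control, 13.54 and 13.50 in STZ and 11.40 and 13.48 in STZ+MENS, so that STZ+MENS sample 1 lay below both controls. Their part in Ube2l6 was not tested. Ube2z, which takes ubiquitin and FAT10 from the E1 enzyme Uba6, was at 13.89 and 13.86 in control, 14.22 and 14.31 in STZ and 13.33 and 13.99 in STZ+MENS, a difference of -0.60 ± 0.23 against STZ, which became -0.27 without STZ+MENS sample 1 and -0.93 without sample 2. Uba6 itself was -1.43 ± 0.23 in that comparison.

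The less studied E2 genes gave some of the more even patterns. Ube2q1 was at 11.21 and 11.40 in control, 11.33 and 11.34 in STZ and 10.57 and 10.71 in STZ+MENS, lower in both STZ+MENS samples than in all others (-0.69 ± 0.14 against STZ, -0.66 ± 0.14 against control). Ube2q2 was at 13.84 and 13.81 in control, 13.92 and 14.07 in STZ and 13.49 and 13.48 in STZ+MENS, in the same order with smaller steps (-0.51 ± 0.14 and -0.34 ± 0.14). Their relative Ube2ql1 was at 9.60 and 9.38 in control, 8.41 and 8.49 in STZ and 9.41 and 9.02 in STZ+MENS, lowest in STZ (-1.04 ± 0.18 against control, 2.06-fold) and higher in STZ+MENS than in STZ (0.77 ± 0.18). Ube2u had the same order, at 10.50 and 10.44 in control, 9.72 and 9.53 in STZ and 10.04 and 10.25 in STZ+MENS, with differences of -0.84 ± 0.15 and 0.52 ± 0.15. Ube2o, a very large enzyme that joins E2 and E3 activity, differed by 0.25 ± 0.16 and -0.10 ± 0.16.

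Among the proteases, Usp25 stood out in size. Usp25, which trims chains on signalling adaptors of the TRAF family and is a close relative of Usp28, was at 12.18 and 12.17 in control, 12.46 and 12.50 in STZ and 10.44 and 11.00 in STZ+MENS. Both STZ+MENS samples lay more than 1 below all others, with a difference of -1.75 ± 0.20 against STZ (adjusted p = 0.0573, limma) and of -1.45 ± 0.20 against control. Without STZ+MENS sample 2 the difference from STZ was -2.03 for Usp25 and -2.03 for Ube2a. Without STZ+MENS sample 1 it was smaller, -1.48 for Usp25 and -1.60 for Ube2a. Usp28, which acts on p53-pathway proteins and on Myc, differed by 0.33 ± 0.21 against STZ, with overlap.

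Usp11, a protease linked to repair of DNA breaks and to TGF-beta receptor signalling, was the member with the smallest p in STZ against control. It was at 11.36 and 11.15 in control, 10.36 and 10.19 in STZ and 10.37 and 10.28 in STZ+MENS, so both STZ and STZ+MENS samples lay below both controls (-0.98 ± 0.15, adjusted p = 0.0966, and -0.93 ± 0.15, adjusted p = 0.111, limma). STZ+MENS and STZ differed by 0.05 ± 0.15. The other proteases of TGF-beta signalling were not low in STZ: Usp4, Usp15 and Usp9x differed from control by 0.33 ± 0.16, 0.31 ± 0.17 and 0.30 ± 0.19. Each was higher in both STZ samples than in either control (52.1% of all genes did not overlap in either direction), and none had an unadjusted p under 0.05. Between STZ+MENS and STZ they differed by -0.02 ± 0.16, -0.33 ± 0.17 and -0.43 ± 0.19.

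Of the other proteases of DNA damage and p53, Usp7 removes ubiquitin from p53 and from its ligase Mdm2, and Usp10 from p53. Usp7 was at 13.05 and 13.28 in control, 13.29 and 13.15 in STZ and 12.93 and 12.85 in STZ+MENS, and Usp10 at 15.38 and 15.37 in control, 15.36 and 15.54 in STZ and 15.50 and 15.48 in STZ+MENS, one of the brightest members and nearly level. Usp47 differed by -0.36 ± 0.17 in STZ+MENS against control. Mdm2 itself was 0.98 ± 0.21 in STZ and 1.21 ± 0.21 in STZ+MENS against control.

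Usp1 and Usp46 are both switched on by the partner protein Wdr48, and Usp1 takes ubiquitin off PCNA, the substrate of the Rad6 enzymes. Usp1 was at 10.25 and 9.76 in control, 10.73 and 10.31 in STZ and 9.01 and 9.67 in STZ+MENS, a difference of -1.18 ± 0.29 in STZ+MENS against STZ (2.27-fold lower). Usp46 was at 10.22 and 9.57 in control, 9.83 and 10.12 in STZ and 8.41 and 9.22 in STZ+MENS, a difference of -1.16 ± 0.33 against STZ and -1.08 ± 0.33 against control, which became -0.75 and -0.68 without STZ+MENS sample 1. Neither gene overlapped between STZ+MENS and the other groups, and for both the lowest value was that of STZ+MENS sample 1.

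The proteases that act on histones went in both directions. Usp22, the protease of the SAGA transcription complex, was at 11.62 and 11.36 in control, 11.77 and 11.44 in STZ and 10.41 and 11.10 in STZ+MENS, lower in STZ+MENS (-0.85 ± 0.26 against STZ, and -0.50 without STZ+MENS sample 1). Usp3, which acts on histone H2A, was at 12.68 and 12.43 in control, 12.18 and 12.37 in STZ and 13.00 and 12.85 in STZ+MENS, higher in STZ+MENS than in STZ by 0.65 ± 0.16. Usp44, known from the spindle checkpoint and histone H2B, was at 12.40 and 12.63 in control, 11.69 and 11.69 in STZ and 12.44 and 11.95 in STZ+MENS, lowest in STZ (-0.82 ± 0.20 against control, 0.51 ± 0.20 for STZ+MENS against STZ, where it was 0.26 without STZ+MENS sample 1). Of the 8 listed, 3 were called in STZ+MENS against STZ (37.5%; all genes 25.4%), 2 higher and 1 lower. Usp16 and Usp21 overlapped between these groups, and Usp27x, Usp49 and Usp51 were dimmer than the median gene.

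At the proteasome, Usp14 edits chains on bound substrates, and Usp5 recycles free chains. Usp14 was at 14.42 and 14.54 in control, 14.77 and 14.49 in STZ and 14.44 and 14.22 in STZ+MENS and Usp5 at 12.01 and 12.13 in control, 12.25 and 12.04 in STZ and 11.82 and 12.22 in STZ+MENS. Neither of them, nor Usp13, was called in any comparison. Of all genes 17% were called in STZ against control, 25.4% in STZ+MENS against STZ and 18% in STZ+MENS against control. The differences of STZ+MENS from STZ were -0.30 ± 0.17 for Usp14, -0.13 ± 0.19 for Usp5 and 0.21 ± 0.15 for Usp13. A dimmer Usp14 probe was -0.49 in STZ+MENS against control, where the brightest was -0.15.

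Of 6 proteases of endosomes and membranes, Usp8 and Usp32 were called lower in STZ+MENS than in STZ (33.3%, all genes 25.4% in either direction and 12.8% lower). Usp32 was called lower and Usp20 higher in STZ+MENS than in control (33.3%, all genes 18% in either direction). Usp32 was at 10.20 and 10.20 in control, 10.42 and 10.12 in STZ and 9.62 and 9.66 in STZ+MENS (-0.63 ± 0.16 and -0.56 ± 0.16). Usp8, which spares receptors from the lysosome, was at 12.33 and 12.24 in control, 12.51 and 12.36 in STZ and 11.98 and 12.15 in STZ+MENS (-0.37 ± 0.15 against STZ). Usp20 was at 11.67 and 11.66 in control, 11.58 and 11.92 in STZ and 11.99 and 12.25 in STZ+MENS (0.46 ± 0.18 against control). Usp30, of the outer mitochondrial membrane, was at 11.68 and 11.52 in control, 11.44 and 11.52 in STZ and 11.12 and 11.67 in STZ+MENS, with a difference of -0.08 ± 0.21. Usp19, of the reticulum membrane, differed by 0.17 ± 0.14 on its bright probe and by -0.73 on a dim one.

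The very large proteases Usp9x, Usp24 and Usp34 were all higher in both STZ samples than in either control. Over all genes 52.1% did not overlap between these groups in either direction. Of the 3, Usp34 alone was called there (33.3%, all genes 17%). Usp34, linked to Wnt signalling, was at 9.97 and 10.08 in control, 10.45 and 10.37 in STZ and 9.60 and 9.76 in STZ+MENS, with differences of 0.38 ± 0.14 in STZ against control and -0.73 ± 0.14 in STZ+MENS against STZ. The first was no longer called when any 1 of the control or STZ samples was left out (0.19 to 0.44 over all alternatives), while the second was called in 17 of 18 alternatives. Usp24 was at 13.10 and 13.15 in control, 13.23 and 13.49 in STZ and 13.41 and 13.44 in STZ+MENS and differed by 0.06 ± 0.15.

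Among the further proteases, Usp38 was at 11.11 and 11.17 in control, 11.73 and 12.05 in STZ and 11.25 and 11.27 in STZ+MENS, highest in both STZ samples (0.75 ± 0.16 against control, -0.63 ± 0.16 for STZ+MENS against STZ). Usp45 was at 9.78 and 9.61 in control, 10.01 and 9.66 in STZ and 9.04 and 9.26 in STZ+MENS, lower in STZ+MENS (-0.69 ± 0.18 against STZ). Usp29, an imprinted gene, was 0.40 ± 0.13 higher in STZ+MENS than in STZ, and Usp37, which acts on cyclin A, 0.41 ± 0.16 higher in STZ than in control. Usp2, a protease whose liver transcript follows the day, spread as widely within groups as between them, at 13.13 and 13.74 in control, 13.62 and 14.29 in STZ and 13.43 and 14.04 in STZ+MENS. Of the 11 measured of 13 listed clock genes, 3 were called higher and 2 lower in STZ against control (45.5%, all genes 17%). In STZ+MENS against STZ 3 were called higher and 3 lower (54.5%, all genes 25.4%). Dbp, Per1 and Tef were the higher ones in the latter (0.58, 0.54 and 0.44), and Clock, Nr1d2 and Nr1d1 the lower ones (-0.73, -0.66 and -0.54). Against control, Ciart and Per1 were higher in STZ+MENS (1.48 and 1.11) and Nr1d1 lower (-0.66). The part of the clock genes in Usp2 was not tested. The 2 members caught by name only, Usp6nl and Ube2cbp, were 0.48 ± 0.18 in STZ against control and -0.59 ± 0.21 in STZ+MENS against STZ, the latter -0.37 without STZ+MENS sample 1.

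**Figure D4:**
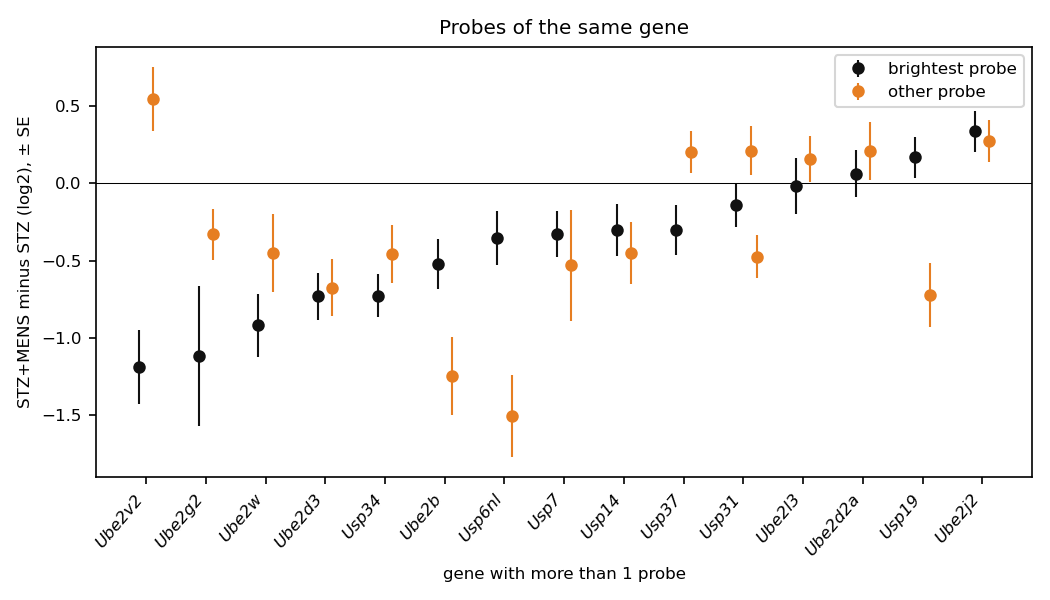
Difference of STZ+MENS from STZ (vertical axis, log2, with standard error bars) for the 15 members with more than 1 probe (horizontal axis), the brightest probe in black and the others in orange. Ube2v2 is the gene whose probes lie on opposite sides of 0 with both at an unadjusted p under 0.05, and the probes of Ube2d3 and Ube2j2 lie close together.

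For 15 members the array held more than 1 probe, 16 further probes in all. In STZ+MENS against STZ 11 of the 16 had the sign of the brightest probe and 5 the opposite one; in STZ against control these were 12 and 4. Of the 4 cases in which both probes had an unadjusted p under 0.05, Ube2b, Ube2d3 and Usp34 agreed in direction and Ube2v2 did not. Usp6nl differed by -0.35 on its bright and -1.51 on its dim probe. Probes can read different transcript ends or forms, and which of them applies here was not tested.

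Of the other genes of the pathway, 103 listed ones were measured, and those called were 15 in STZ against control (11 higher, 4 lower), 42 in STZ+MENS against STZ (10 higher, 32 lower) and 32 in STZ+MENS against control (12 higher, 20 lower), at an unadjusted p under 0.05, or 14.6%, 40.8% and 31.1%, against 17%, 25.4% and 18% of all genes. The median difference was 0.05, -0.16 and -0.10 in that order. Of all genes 8.49%, 12.8% and 9.18% were called lower in the same order. Of 7 E1 activating enzymes, which start every ubiquitin or ubiquitin-like cascade, 5 were called in STZ+MENS against STZ (71.4%; all genes 25.4%), 2 higher and 3 lower. Uba6 and Nae1 were lower (-1.43 ± 0.23 and -1.32 ± 0.27), and Atg7 and Uba7 higher (0.66 ± 0.16 and 0.71 ± 0.26). Nae1 loads NEDD8, the modifier that switches on cullin ligases.

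Of 57 E3 ligases, 25 were called in STZ+MENS against STZ (43.9%; all genes 25.4%), 7 higher and 18 lower (all genes 12.6% and 12.8%). The cullin scaffolds Cul4a and Cul3 were lower by over 0.8 (-1.02 ± 0.14 and -0.81 ± 0.16), and Ubr4, of the N-degron ligases, and Rnf40, the ligase that works with the Rad6 enzymes on histone H2B, were higher (0.85 ± 0.15 and 0.83 ± 0.20). Of 26 deubiquitinases of other families, 7 were called in that comparison (26.9%; all genes 25.4% in either direction). Of the 7, 6 were lower and 1 was higher (all genes 12.8% lower and 12.6% higher). Psmd14, the protease of the proteasome lid, was -0.91 ± 0.17, Otud1 -1.89 ± 0.36 and Josd2 0.86 ± 0.18. Of 13 shuttle and segregase genes, which hand ubiquitin-marked proteins to the proteasome or to autophagy, 5 were called lower and none higher (38.5%, all genes 25.4% in either direction and 12.8% lower). Ubqln2 was -1.62 ± 0.17 (adjusted p = 0.0573, limma) and Rad23b -1.30 ± 0.35. Ubqln2 had been 0.83 ± 0.17 in STZ against control. None of these list genes passed the adjusted threshold. The 4 listed ubiquitin genes were not analysed here.

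The liver label was checked on hepatocyte markers, of which 6 of 8 were measured and all were bright. Their mean level was 18.52 and 18.50 in control, 18.32 and 18.31 in STZ and 17.94 and 18.23 in STZ+MENS, and Apob was -2.12 in STZ+MENS against STZ while the other 5 had no unadjusted p under 0.05. Macrophage markers (9 of 9 measured) had mean levels between 11.18 and 11.89, with STZ+MENS sample 1 the lowest. By summed intensity that sample (67830) lay above control sample 2 (63690) and STZ sample 2 (60180) and below the rest. Mean levels of lymphocyte markers (7 of 8) lay between 9.35 and 9.64, and those of endothelial and stellate cell markers (7 of 8) between 11.49 and 11.77. Bile duct cell markers (6 of 6) were at 10.16 and 9.90 in control, 10.77 and 10.45 in STZ and 10.27 and 10.45 in STZ+MENS, with Krt19 1.25 and Tspan8 1.47 higher in STZ than in control. In whole tissue, fewer cells of a type and less RNA per cell cannot be told apart, and the part of these markers in the members' differences was not tested. STZ+MENS sample 1 had the lowest hepatocyte mean, with Apob at 14.21 against 15.84 to 17.43 in the other samples. Its summed hepatocyte intensity, 2186000, lay between those of STZ samples 1 and 2 (2188000 and 2148000). The controls and STZ+MENS sample 2 had higher sums (2258000 to 2414000). The members' median difference of STZ+MENS from STZ was -0.11 when STZ+MENS sample 1 was dropped and -0.17 when its fellow sample 2 was. Dropping STZ sample 1 or 2 instead gave -0.13 and -0.12.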

How the data were processed

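Liver RNA was measured on 12 single-colour Phalanx Mouse OneArray arrays (version 2, release 2.1), with 2 for every sample. The deposited values are linear probe intensities that the authors had already normalized: array medians lay between 768.89 and 770.33, and 44 to 52 values per array were below 0. How background was corrected and arrays were normalized is not given in the sources used here. Per the submitters' processing notes the tools include limma 3.30.7, at a step they leave unnamed. Values equalised in this way cannot show a change in total RNA.

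Negative values were raised to 0 and log2(intensity + 50) was computed, which understates differences of dim genes. The brightest probe stood for a gene. Probe names came from GEO's platform annotation (20377 probes with 1 symbol, 6046 unnamed), updated through a RefSeq table of GRCm38.p6 used for names only. A sample's arrays were averaged, and limma 3.58.1 (lmFit, eBayes) in R 4.3.3 fitted 1 mean per group to the 6 samples, with 3 residual and 3.19 prior degrees of freedom. Tests were two-sided, adjusted by Benjamini-Hochberg over 17742 genes, and the fit was tested on simulated data. With 2 samples a side the exact permutation test reaches p = 0.33 at the lowest and was left out. Samples were numbered 1 and 2 within each group here, which need not follow the numbers in the labels. Same-numbered samples of different groups correlated at -0.0702 to 0.00496 in their deviations. As the numbering is arbitrary, this cannot show whether samples were paired.

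The members and lists were chosen with earlier results of these data known. By rule, up to 6 members per comparison and direction with the smallest unadjusted p and no overlap were named, with a panel of 23 members (21 measured) whatever their values, and 2 pathway genes per list and direction; further members and markers were described by role after their values were seen. The lists cover the rest of the ubiquitin pathway and markers of liver cell types and states. Alternatives changed the offset, filter, probe rule, normalization, variance prior, arrays, samples and blocks. Plots were drawn with Python 3.11.15.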

Additional observations from a re-analysis of the deposited data

How the results depend on the processing

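None of the 32 differences named by the smallest p changed its sign in the alternatives run (up to 18 each). Over these 32 differences, 518 values stayed on their side of an unadjusted p of 0.05 and 57 crossed it. Ube2a, Usp25, Ube2q1 and Usp11 kept it in every alternative of the comparisons they were named in, as did Ube2d3, Ube2ql1, Usp38, Usp3, Ube2w and Usp32; Ube2r2 against control lost it in 11, Usp34 and Usp37 in STZ against control in 9 each. Ube2v2 was -0.32 with all probes averaged. Of the panel's further differences, 1008 values stayed on their side of that threshold, 28 lost the call and 26 gained it. A panel difference did change its sign: Ube2l6 in STZ+MENS against control was -0.67, and 0.03 without STZ+MENS sample 1.

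In STZ+MENS against STZ, 2 members passed the adjusted threshold with the second arrays alone (30 of all genes). Without genes whose arrays of a sample differ by over 2, the count of members passing was also 2 (45 of all genes), Ube2a and Usp25 each time. With one sample left out this count ran from 0 to 12, the latter without STZ+MENS sample 2. The unadjusted count was 16 of 76 with the second arrays alone, 5 higher and 11 lower. Of all genes 21.8% were called in that setting, and 11.3% were called lower. The median difference was -0.159 with the first arrays alone and -0.17 to -0.1066 with a sample left out. In STZ+MENS against control the unadjusted count was 9 with the second arrays alone and 8 to 18 with a sample left out, and the median -0.1091 to -0.0417. The cause of these shifts was not tested.

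With the sample number as replicate block, which is no known pairing, 13, 24 and 12 of 76 members had an unadjusted p under 0.05. The order is STZ against control, STZ+MENS against STZ and STZ+MENS against control. Shares of all genes were 15.4%, 22.7% and 16.2%. No member passed the adjusted threshold in this fit. A fit of the arrays with the array number as replicate block and the sample as a random block passed 6, 17 and 5; it counts arrays among its degrees of freedom, which overstates the evidence of 6 samples. Few samples and dim probes (Usp51, Ube2t) limit what can be seen.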
